A study of Mus musculus with 36 samples.

Results

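The WT (wild-type) mouse brain was compared between P0 (newborn) and P25 (juvenile) in 12 of the 36 RNA-Seq libraries of the series. The members are the libraries whose labels give the WT genotype and an age of P0 or P25. There were 6 at each age, 3 from males and 3 from females, all labelled as whole brain of C57BL/6 mice, with no treatment given. The series follows Chd8+/S62X (HT) mice, which carry 1 Chd8 allele with an inserted stop codon, and their WT counterparts at P0, P25 and P80 (adult). The 12 HT libraries of P0 and P25, of the same strain, tissue and sexes, were used here only to set the change of another genotype beside that of WT mice. Replicates are described as separate mice, and whether any shared a litter is not given in the sources used here.

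Each gene had 1 normalized value per library, an estimated number of fragments divided by a scaling factor, so the values of 1 gene can be compared between libraries but those of different genes cannot. Of 29799 genes, the 18482 whose mean over these libraries reached 10 were tested with limma on log2 of the value plus 1, with sex as a covariate. A gene was said to rise or fall when its Benjamini-Hochberg adjusted p was under 0.05, and SE is the standard error of its log2 fold change. Summed over all genes, the values of each P0 library came to between 34869809 and 38154000 (median 36205763), and those of each P25 library to between 33981761 and 35029432 (median 34432106). The sums overlapped between the ages and were lower at P25 (exact two-sided permutation test, p = 0.00433, where 6 against 6 libraries can give 0.00216 at the least).

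In the mouse, the first postnatal weeks take the brain from the end of neuron production to a network of myelinated axons and mature synapses. Newborn neurons still extend axons and express tubulins and adhesion molecules of growth, while glial precursors divide, spread and then differentiate into astrocytes and oligodendrocytes. Receptor and channel subunits of early neurons are replaced by those of mature ones over the same period, and energy metabolism shifts towards oxidative phosphorylation.

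The tissue label was first checked against genes that mark brain regions, and the P0 libraries went against it. Tbr1, a transcription factor of cortical projection neurons, was at 51.96 in P0 male library 1 and 125.4 in P0 female library 2, against 5672 to 7742 in the other 4 P0 libraries and 2143 to 2524 at P25. Emx1, a transcription factor of the dorsal telencephalon, was at 4.73 and 19.1 in the same libraries, against 492.6 to 674.8 in the other 4 and 330.8 to 432.7 at P25. En2, of the midbrain and cerebellum, was at 75.1 and 1060 in these libraries, at 3.23 to 5.99 in the other 4, and at 1073 to 1323 in the P25 libraries. Hoxb3, a gene of the hindbrain and spinal cord, was at 2733 in P0 male library 1 and 518.2 in P0 female library 2, against 0 to 1.56 in the other 4 and 18.6 to 54.7 at P25. Hoxb8, which marks more caudal levels, was at 1047 in P0 male library 1 and no higher than 10.4 in any of the other 11 libraries. Tcf7l2, which marks the thalamus, was at 13550 in P0 female library 2 and 8359 in P0 female library 3, against 284.4 to 555.9 in P0 male library 1 and the 3 remaining P0 libraries. The summed value of 19 telencephalic genes was 5901 in P0 male library 1 and 8372 in P0 female library 2, against 76224 to 95577 in the other 4 P0 libraries. That of 22 midbrain and hindbrain genes was 24273 and 14048 in the same pair, against 306 to 821. P0 female library 2 also had the highest sum of 16 diencephalic genes, 22685, followed by P0 female library 3 with 12587, and its Emx2 value of 460.3 lay within the 371 to 700 of the other 4. P0 male library 1 and P0 female library 2, low in Tbr1 and Emx1, are called the Tbr1-low libraries, and the 6 P25 libraries held all of these sets, each at like levels from library to library. No P0 library had both Tbr1 and En2 within their P25 range or above it.

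**Figure D1:**
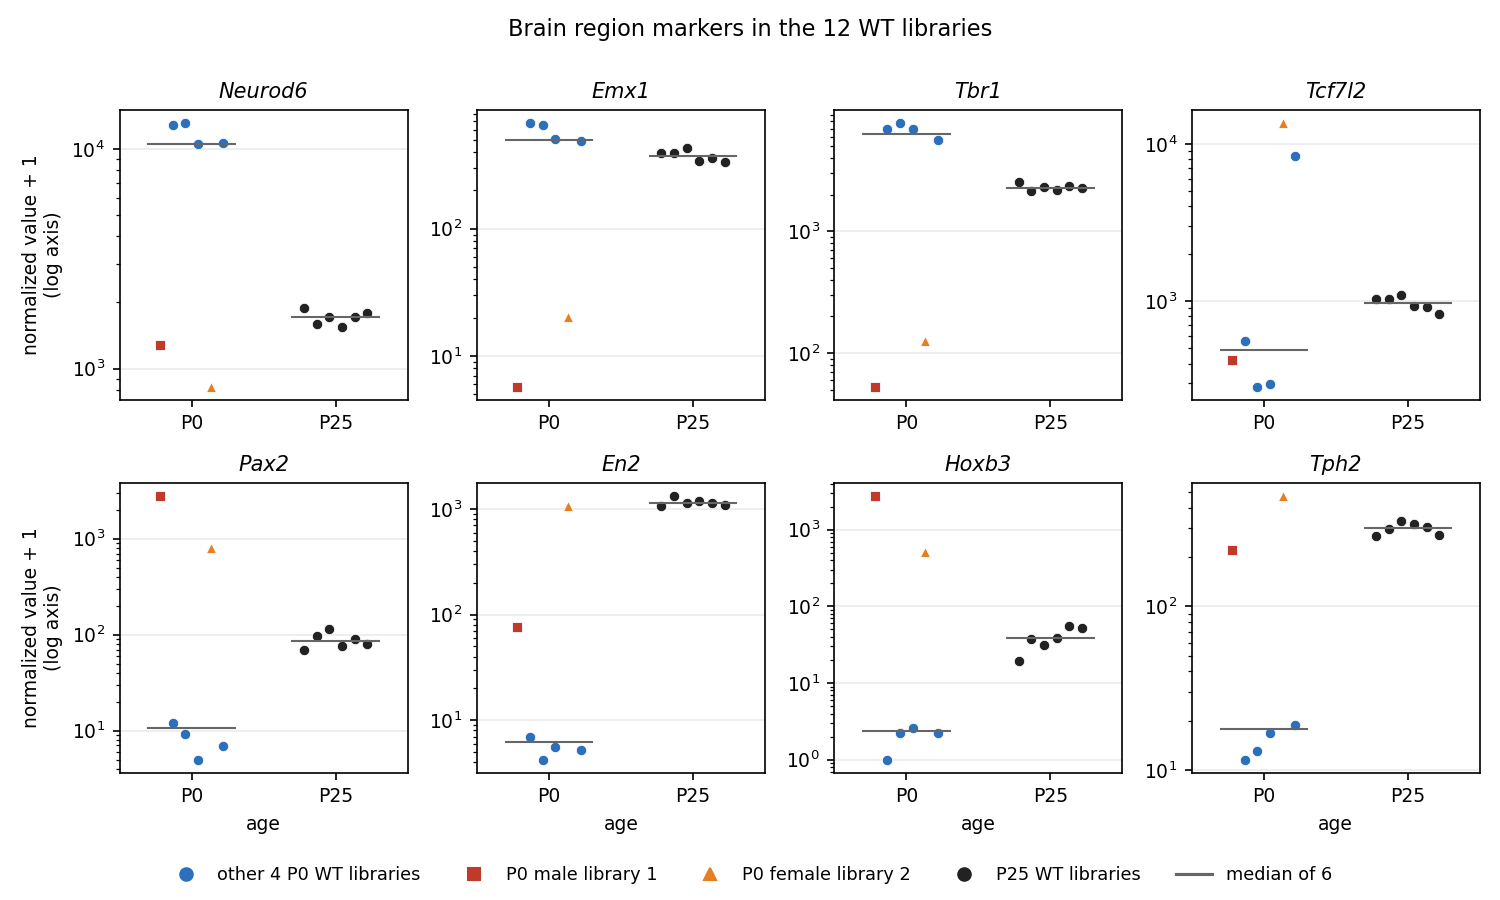
Normalized value plus 1 (log axis, a range of its own in each panel) of 8 brain region genes in each of the 6 P0 and 6 P25 WT libraries, with the median of each age as a line. The square and the triangle are P0 male library 1 and P0 female library 2, which lie apart from the other 4 P0 libraries for Neurod6, Emx1, Tbr1, Pax2, En2, Hoxb3 and Tph2, whereas the 6 P25 libraries lie close together.

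This unevenness is seen across the table. Across genes, the correlation of log2 values was 0.985 to 0.991 between P25 libraries and 0.917 to 0.983 between P0 libraries, against 0.863 to 0.881 between a P0 and a P25 library. The median standard deviation of a gene on the log2 scale was 0.3 over the 6 P0 libraries, 0.182 over the 4 that are not Tbr1-low and 0.125 over the 6 P25 libraries. Genes whose 6 P0 values all lay on the same side of all 6 P25 values were therefore preferred, and results are given also from the other 4 P0 libraries where the 2 libraries matter. In bulk tissue, fewer cells of a type and less RNA per cell cannot be told apart.

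Of the 18482 genes tested, 6587 (35.6%) rose and 6630 (35.9%) fell from P0 to P25. All 6 P25 values were above all 6 P0 values for 4918 genes (26.6%) and below them for 4832 (26.1%). With all of these conditions and a change of at least 2-fold, 2925 genes (15.8%) were higher and 2603 (14.1%) were lower at P25. The median log2 fold change of all genes was -0.002. The balance of rises and falls depends on the scaling, with 7128 and 6125 when each library was given the same sum and 6368 and 6910 with quantile normalization. Without P0 male library 1 and P0 female library 2, 7306 genes (39.5%) rose and 7382 (39.9%) fell. Of all 13217 calls, 360 (2.72%) were lost without these libraries, 0 changed direction while called, and 1831 calls were gained. When the 2 libraries were used alone as the P0 side, the direction of many genes, called ones included, was opposite to that from the other 4, as with Slc6a5 and Emx1 described with the region lists. These shares are the background for the counts of the gene groups that follow, and a group whose share of rises or falls is near them does not stand apart from the table as a whole.

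**Figure D2:**
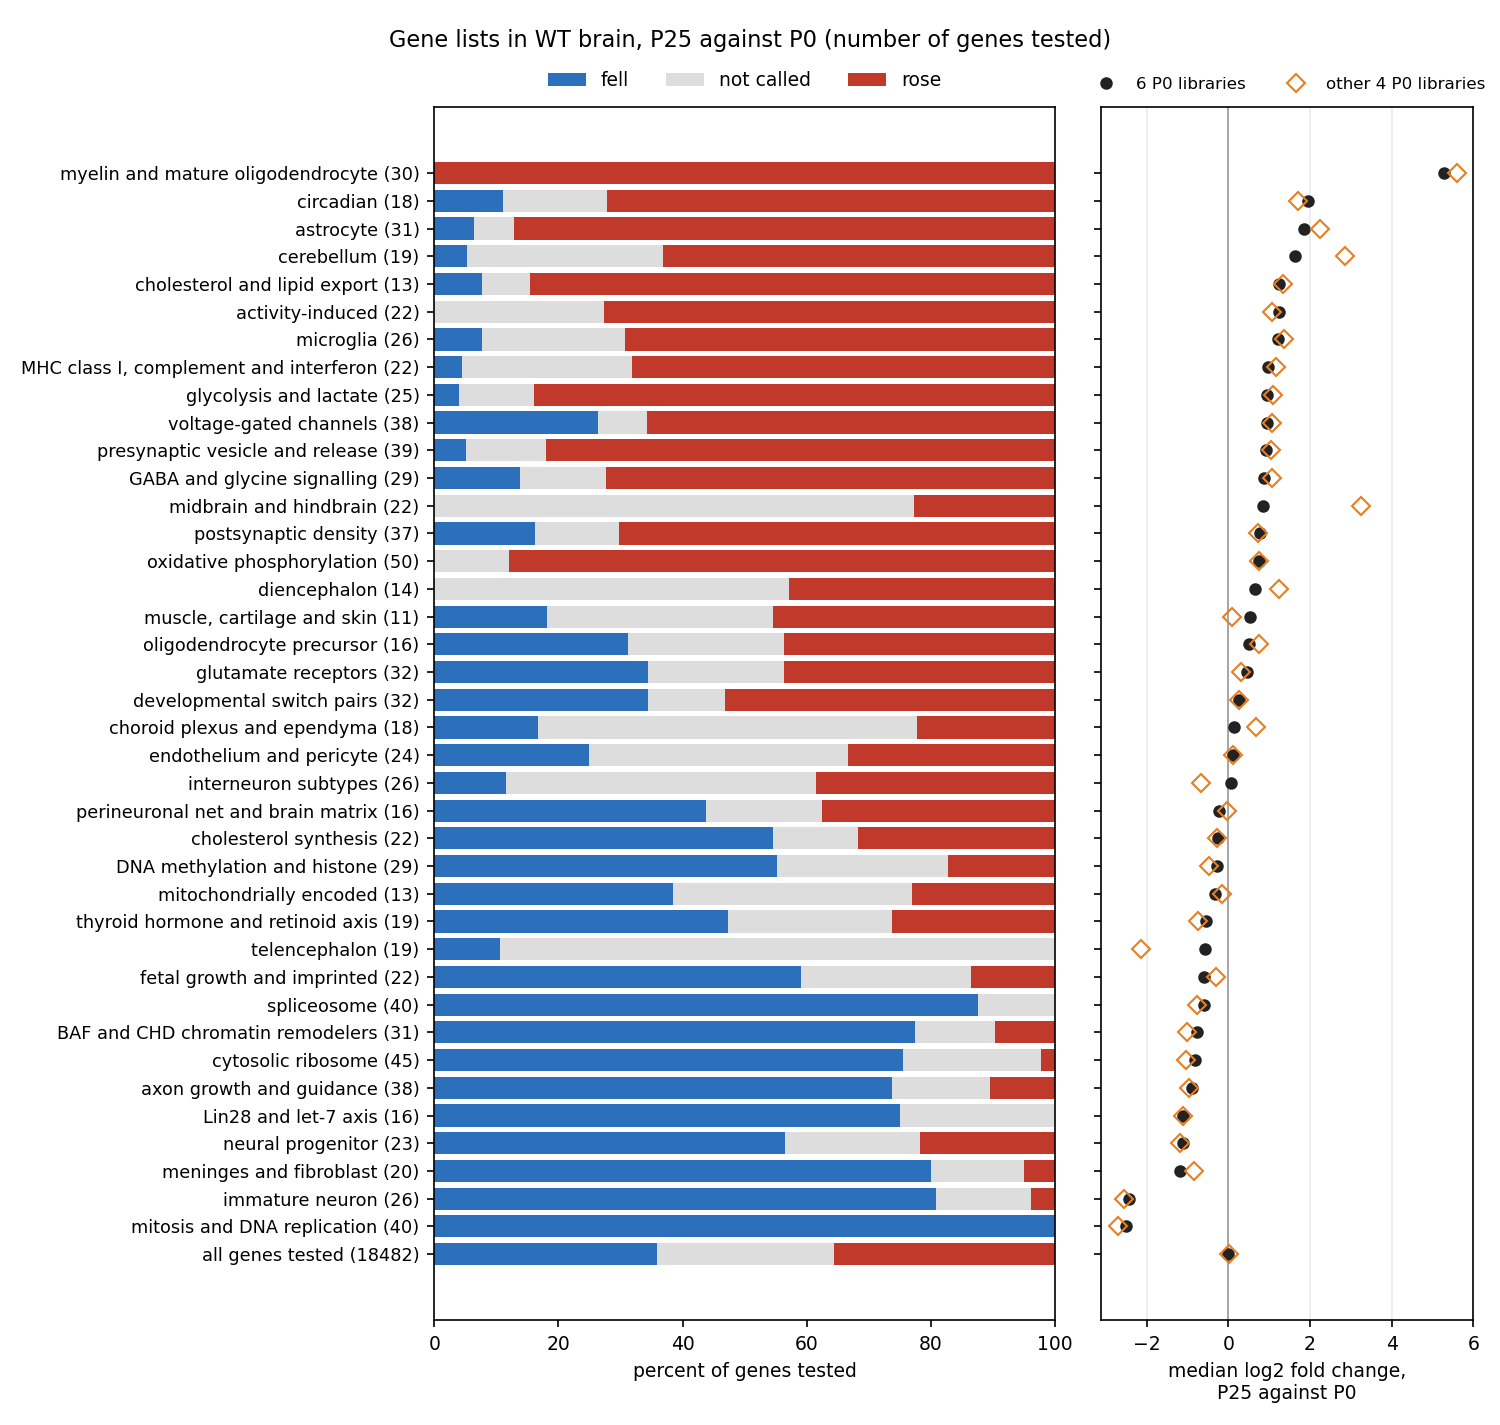
Left, the percent of tested genes that fell, were not called or rose from P0 to P25 in WT brain, for each gene list with at least 10 genes tested (number of genes tested in parentheses) and for all genes tested. Right, the median log2 fold change of the same lists from all 6 P0 libraries (points) and from the other 4 P0 libraries (diamonds), which differ most for the telencephalon and the midbrain and hindbrain lists.

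Myelin genes were among the largest rises. By rule, the largest rises were taken among genes with ages apart, a mean of at least 100 and a value above 0 in all 12 libraries. The largest was that of Mobp, a myelin protein gene on chromosome 9, whose normalized value was 10.1 to 325 (median 12.4) at P0 and 59392 to 69318 (median 64012) at P25. Its log2 fold change was 11.28 (SE 0.695, adjusted p = 3.12e-08 in limma). Mag, Fa2h, Mal and Mbp, which also serve myelin, had log2 fold changes between 7.64 (Mbp) and 8.72 (Mag). Gabra6 and Cbln3, both genes of cerebellar granule cells, changed by 9.18 and 6.81. Gabra6 was at 1.34 to 11.2 (median 5.27) at P0 and 2855 to 3767 (median 3497) at P25. Others by this rule were Pvalb, the calcium buffer of fast-spiking neurons (8.06), Scn4b, a sodium channel subunit (7.41), and Mybpc3, best known as a sarcomere protein of the heart (7.88). Mybpc3 was at 1.11 to 7.5 (median 3.84) at P0 and 929 to 1224 (median 1119) at P25, with a median of 266 in the 6 WT libraries of P80, an age that another label field of the same libraries gives as P56. Without P0 male library 1 the change of Mobp was 12.03, that of Mag 9.31 and that of Pvalb 8.77. From the other 4 P0 libraries alone, the changes of these 10 genes lay between 6.91 (Cbln3) and 12.34 (Mobp), and from the 2 Tbr1-low libraries alone between 5.33 (Pvalb) and 9.17 (Mobp).

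Among the 12 largest falls was that of H19, an imprinted noncoding RNA of fetal tissue on chromosome 7, which was at 2464 to 21106 (median 4954) at P0 and 45.2 to 98.8 (median 60.3) at P25, a log2 fold change of -6.52 (SE 0.472, adjusted p = 1.23e-07 in limma). From the other 4 P0 libraries its change was -5.81 and from the 2 Tbr1-low ones -7.95. Draxin, a repulsive axon guidance protein, was at 2446 to 5347 (median 4545) at P0 and 23.3 to 58.7 (median 52.7) at P25 (-6.37). St8sia2, the enzyme that builds polysialic acid on the adhesion molecule NCAM, was at 9211 to 15617 (median 12371) at P0 and 157 to 233 (median 182) at P25, and its change of -6.00 was nearly the same from the other 4 P0 libraries (-6.07) and from the 2 Tbr1-low ones (-5.86). Dpysl3, a collapsin response mediator of growth cones, changed by -5.30, and Cd24a, a surface protein of young neurons, by -5.21. Gpc2, Mex3a, P2rx2, Adamts7, Chaf1b and Igfbpl1 had log2 fold changes between -5.24 (P2rx2) and -4.66 (Igfbpl1), and that of Igfbpl1 was -5.58 from the other 4 P0 libraries and -2.81 from the 2. Chaf1b belongs to the complex that places histones on newly made DNA, and P2rx2 is an ATP-gated channel. Nespas, also among the 12, runs antisense to Nesp at the imprinted Gnas locus. It was at 15.9 to 1227 (median 203) at P0 and 0.967 to 2.39 (median 1.88) at P25, with a change of -6.14 that became -5.51 without P0 male library 1 and -6.88 without P0 male library 3. Since the library kit does not mark strand, its reads cannot be told apart from those of its partner.

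Genes of cell division fell as a group. Of 40 genes of mitosis and DNA replication, 40 fell and 0 rose, against 35.9% of all genes that fell, and 38 had all P25 values below all P0 values. Their median log2 fold change was -2.51 (-2.71 from the other 4 P0 libraries), against -0.002 for all genes. The summed value of the list was 22110 to 31064 (median 29127) at P0 and 5478 to 6543 (median 6085) at P25, and the ages did not overlap. Mki67, the antigen of cycling cells, was at 2445 to 3120 (median 2678) at P0 and 119 to 218 (median 138) at P25, a log2 fold change of -4.18 (SE 0.14, adjusted p = 3.25e-10 in limma). Esco2, which sets sister chromatid cohesion, changed by -4.18. Pcna and Rrm1, which act in DNA synthesis and repair, changed less, by -0.66 and -1.37. Pcna was at 1468 to 2487 (median 2233) at P0 and 1174 to 1371 (median 1273) at P25, and its ranges did not overlap either.

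Promoters of this group often held a pair of motifs known from cell cycle genes. The CCAAT box is bound by NF-Y, and the cell cycle homology region (CHR), TTTGAA, is bound by the DREAM and B-MYB complexes, whose targets peak in G2 and mitosis. RefSeq promoters (GRCm38.p6, 250 bases before to 50 after the start of the gene) were at hand for 33 of the 40 genes. CCAAT, read on both strands, stood in 28 of them (84.8%), against 38.5% of the 12844 promoters of tested genes. TTTGAA, read on both strands, stood in 18 (54.5%), against 12.2%, and both stood in 17 (51.5%), against 5.19%. In the sequences printed below, the stretches of CCAAT and TTTGAA do not overlap. Of 22 promoters of myelin genes 11 held CCAAT and 4 TTTGAA, and of 29 promoters of presynaptic genes 4 held each. A match gives the letters only and not the binding of a factor. The 5 genes of the group with both motifs in the last 100 bases before the start are shown as examples of the pair. All 40 genes of the group fell, with or without the motifs. The sequences are those 100 bases on the strand of the gene, with CCAAT (or ATTGG) and TTTGAA (or TTCAAA) in capitals.
Top2a (chr11:99024190-99024289, minus strand): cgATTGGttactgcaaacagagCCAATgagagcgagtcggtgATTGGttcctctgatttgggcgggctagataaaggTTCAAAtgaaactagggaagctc
Kif11 (chr19:37376282-37376381, plus strand): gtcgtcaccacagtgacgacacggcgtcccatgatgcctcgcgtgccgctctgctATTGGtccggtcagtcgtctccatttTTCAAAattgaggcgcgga
Cdk1 (chr10:69352913-69353012, minus strand): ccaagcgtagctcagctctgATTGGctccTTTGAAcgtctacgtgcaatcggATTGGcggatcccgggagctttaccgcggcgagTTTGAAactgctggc
Cdc20 (chr4:118437344-118437443, minus strand): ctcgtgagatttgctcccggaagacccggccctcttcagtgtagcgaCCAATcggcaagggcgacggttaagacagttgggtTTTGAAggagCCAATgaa
Ube2c (chr2:164769829-164769928, plus strand): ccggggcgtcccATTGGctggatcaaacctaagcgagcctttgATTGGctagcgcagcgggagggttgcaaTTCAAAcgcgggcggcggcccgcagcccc
Top2a was at 1007 to 1851 (median 1619) at P0 and 106 to 190.1 (median 156) at P25, a log2 fold change of -3.27 (SE 0.184, adjusted p = 1.48e-08 in limma). On the same scale, the others changed: Kif11 by -2.66, Cdk1 by -3.90, Cdc20 by -2.49 and Ube2c by -3.71.

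The 5 genes encode topoisomerase II alpha (Top2a), a spindle motor (Kif11), the main mitotic kinase (Cdk1), and an activator (Cdc20) and the ubiquitin-conjugating enzyme (Ube2c) of the anaphase-promoting complex. For all 5, each P25 value was below each P0 value.

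Progenitor genes fell less evenly. Of 23 genes of neural progenitors tested, 13 fell and 5 rose, with a median log2 fold change of -1.12, and 14 fell and 8 rose from the other 4 P0 libraries. Tnc, a matrix protein of germinal zones, was at 5610 to 9258 (median 8503) at P0 and 475 to 552 (median 518) at P25. Fabp7, the brain lipid-binding protein of radial glia, was at 10224 to 14473 (median 11995) at P0 and 1313 to 1995 (median 1836) at P25. Their log2 fold changes were -3.95 and -2.76, and neither overlapped between the ages. Vim, an intermediate filament of radial glia and astrocytes, changed by -1.29. The members that rose with ages apart were Hopx (2.39), Prom1 (1.10) and Id3 (0.87), which are also expressed by mature glia or other brain cells.

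Genes of young neurons fell. Of 26 such genes, 21 fell, all with ages apart, and 1 rose (2 from the other 4 P0 libraries), and the median log2 fold change was -2.43. Tuba1a, an alpha-tubulin of growing neurons, was at 262800 to 513177 (median 448311) at P0 and 38882 to 43645 (median 42252) at P25 (-3.30). It shares most of its sequence with Tuba1b and Tuba1c, so its estimate depends on how the authors' counting split shared reads. Tubb2b, a beta-tubulin of migrating neurons, was at 86657 to 178919 (median 165692) at P0 and 5505 to 7232 (median 6399) at P25, a log2 fold change of -4.52 (SE 0.174, adjusted p = 7.63e-10 in limma). Map1b, a microtubule protein of growing axons, changed by -1.76. The member that rose was Neurod1, which is also a gene of cerebellar granule neurons and was at 895 to 1640 (median 1093) at P0 and 3184 to 3730 (median 3585) at P25. Of 38 genes of axon growth and guidance, 28 fell and 4 rose (median -0.90). Gap43, a growth cone protein, was at 24184 to 31706 (median 25801) at P0 and 6380 to 7783 (median 6607) at P25 (-1.97). L1cam, an adhesion molecule of axons, changed by -1.64, and Robo1, a receptor of Slit proteins, by -2.43. Unc5b, a netrin receptor that endothelial cells also express, rose instead and was at 534 to 668 (median 605) at P0 and 2041 to 2398 (median 2178) at P25. Nrcam, an adhesion molecule of the node of Ranvier, rose by 0.30 on the log2 scale.

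Every one of the 30 tested genes of myelin and mature oligodendrocytes rose, and each had all 6 P25 values above all 6 P0 values. The median log2 fold change was 5.29, and 5.59 from the other 4 P0 libraries. The summed value of the list was 20854 to 40637 (median 23258) at P0 and 644403 to 747094 (median 679179) at P25. P0 male library 1 was the highest of the P0 libraries, at 40637. Mbp, myelin basic protein, was at 661 to 4629 (median 720.2) at P0 and 199258 to 248399 (median 222277) at P25, with the highest P0 value in P0 male library 1. Its log2 fold change was 7.64 (SE 0.419, adjusted p = 1.15e-08 in limma), 8.31 from the other 4 P0 libraries and 6.29 from the 2 Tbr1-low ones. Opalin, a protein of mature oligodendrocytes, was listed at 0 to 1.04 (median 0) at P0 and at 1254 to 1517 (median 1458) at P25. At P80 the medians of Mbp and Mobp in the 6 WT libraries were 139415 and 41022, both below the P25 range.

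Of 16 genes of oligodendrocyte precursors tested, 7 rose and 5 fell (median 0.51), shares near those of all genes (35.6% and 35.9%) from all 6 P0 libraries. From the other 4 P0 libraries 10 rose and 5 fell (median 0.75), where 39.5% of all genes rose and 39.9% fell. Gpr17, a receptor of precursors on the way to differentiation, was at 341 to 2395 (median 474) at P0 and 3909 to 5551 (median 4187) at P25. Neu4, a sialidase, was at 2.02 to 40.1 (median 6.7) at P0 and 443 to 618 (median 514) at P25, and both genes lay apart between the ages with their highest P0 values in P0 male library 1. The change of Neu4 was 6.68 from the other 4 P0 libraries and 4.74 from the 2. Pdgfra, the growth factor receptor that marks precursors, was at 2566 to 5902 (median 2789) at P0 and 1638 to 1953 (median 1802) at P25 and fell by 0.88 on the log2 scale. Pdgfra is also expressed by fibroblasts and is itself a member of the list of meninges and fibroblasts described below. The cells in which it fell were not tested. Ptprz1, a receptor phosphatase that radial glia share, changed by -1.44, Cacng4, a partner of AMPA receptors, by -2.38 and Vcan, the matrix proteoglycan versican, by -2.63.

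**Figure D3:**
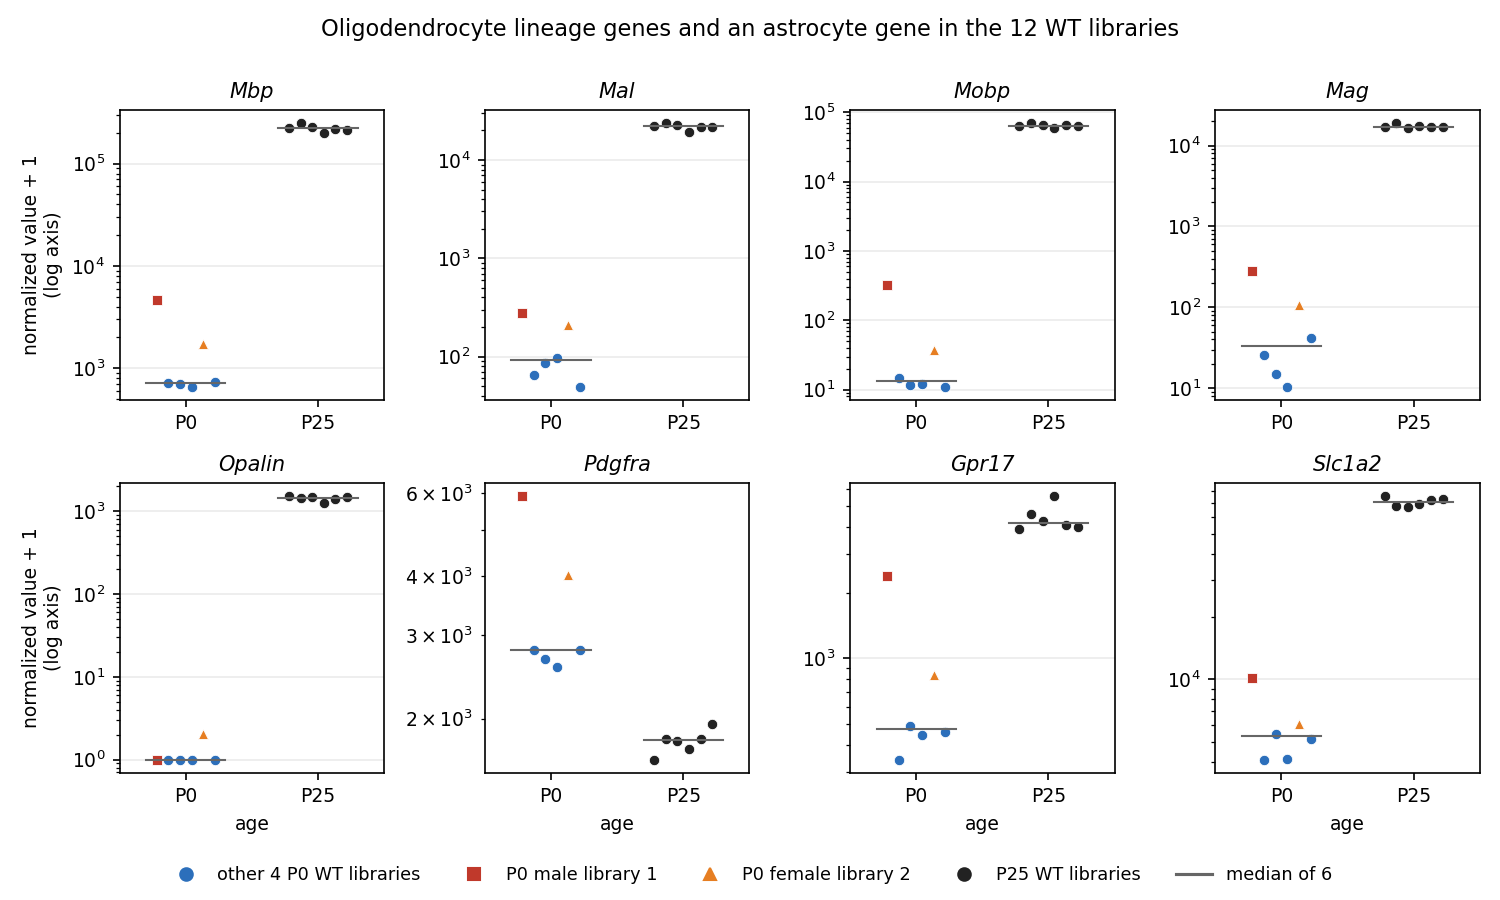
Normalized value plus 1 (log axis, a range of its own in each panel) of 5 myelin genes, 2 genes of oligodendrocyte precursors and the astrocyte transporter Slc1a2 in each of the 6 P0 and 6 P25 WT libraries, with medians as lines. All genes but Pdgfra were higher in each P25 library than in any P0 library, and P0 male library 1 (square) was the highest P0 library for Mbp.

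Astrocyte genes rose. Of 31 tested, 27 rose and 2 fell, and 22 had all P25 values above all P0 values. The median log2 fold change was 1.85 (2.24 from the other 4 P0 libraries). The summed value of the list was 184568 in P0 male library 1 and 134698 in P0 female library 2. It was 73916 to 88877 in the other 4 P0 libraries and 391228 to 407613 at P25. Slc1a2, the main glutamate transporter of astrocytes, was at 4103 to 10106 (median 5309) at P0 and 67008 to 75835 (median 70986) at P25, a log2 fold change of 3.67 (SE 0.183, adjusted p = 5.14e-09 in limma). Apoe, the main lipoprotein of the brain, was at 4861 to 24453 (median 6948) at P0 and 37481 to 44997 (median 39569) at P25. The highest P0 values of Apoe were in the 2 Tbr1-low libraries, and its change was 2.72 from the other 4 and 1.04 from the 2. S100b, a calcium-binding protein, and Aldh1a1, a retinal dehydrogenase that the list holds, changed by 5.80 and 5.33. From the other 4 P0 libraries these changes were 6.74 and 6.50, from the 2 Tbr1-low ones 3.93 and 3.0, and that of Aldh1a1 was 5.94 without P0 female library 2. The members that fell were Sox9 (-0.35), which progenitors share, and Aldh1l1 (-0.34). Aldh1l1 was at 2092 to 3562 (median 2374) at P0 and 1936 to 2300 (median 2047) at P25, which overlapped. Its call was lost when any of 7 single libraries was left out, among them P0 male library 1 and P0 female library 2, and without both of these its change was -0.12 (adjusted p = 0.0923).

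Of 26 microglial genes, 18 rose and 2 fell (median 1.22). Gpr34 and P2ry13, receptors of homeostatic microglia, changed by 2.50 and 2.56. Gpr34 was at 23.8 to 68.2 (median 30) at P0 and 134 to 255 (median 192) at P25. Mrc1, a marker of macrophages at the borders of the brain, fell and was at 164 to 959 (median 407) at P0 and 57.3 to 156 (median 80.4) at P25. Of 24 vascular genes, 8 rose and 6 fell (median 0.11), shares at or below those of all genes. Kdr and Cdh5, a growth factor receptor and a cadherin of endothelium, changed by -1.22 and -1.59, whereas the surface protein Ly6a changed by 3.94. Slco1a4, an organic anion transporter of brain endothelium, was at 22.4 to 228 (median 43.1) at P0 and 1818 to 2112 (median 1877) at P25. Slc2a1, the glucose transporter of the blood-brain barrier, changed by 0.38.

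Genes of meninges and fibroblasts fell, 16 of 20, with 1 that rose (median -1.18, and -0.83 from the other 4 P0 libraries). Col1a2, a fibrillar collagen, was at 1355 to 9337 (median 3504) at P0 and 879.7 to 1117 (median 1033) at P25. Col3a1, another, was at 1360 to 8245 (median 2657) at P0 and 425 to 501 (median 489) at P25. Both were highest in P0 male library 1, and the change of Col3a1 was -2.12 from the other 4 P0 libraries and -3.92 from the 2. The exception was Mgp, an inhibitor of calcification (2.26). In the list of choroid plexus and ependyma, 4 of 18 rose and 3 fell, and 6 rose and 2 fell from the other 4 P0 libraries. Ttr, the thyroid hormone carrier of the choroid plexus, ranged from 38.1 to 70592 among the P0 libraries and from 11941 to 19145 at P25, with the lowest P0 value in P0 female library 1 and the highest in P0 male library 1. Of 9 blood cell genes tested, 4 rose and 1 fell (0 without any of 7 single libraries). Hba-a2, an adult alpha-globin, was at 5590 to 8385 (median 6203) at P0 and 5389 to 11587 (median 8911) at P25, and its call was lost when any of 8 single libraries was left out. Hbb-bs, an adult beta-globin, was at 3569 to 6534 (median 4002) at P0 and 5591 to 11408 (median 10162) at P25. Both genes overlapped between the ages. Hba-a1 and Hba-a2 are near-identical copies, and their separate estimates are uncertain. Among genes of muscle, cartilage and skin 5 of 11 rose and 2 fell (1 without P0 female library 1, P25 male library 1 or P25 female library 3). Col2a1, the cartilage collagen, was at 288 to 823 (median 371) at P0 and 66.7 to 133 (median 109) at P25. The part of tissue around the brain in the falls of meningeal genes was not tested.

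Synaptic genes rose in most cases. Of 39 genes of synaptic vesicles and release, 32 rose and 2 fell (median 0.92), and of 37 genes of the postsynaptic density 26 rose and 6 fell (median 0.77). Snap25, a SNARE protein of vesicle fusion, was at 10065 to 19708 (median 11748) at P0 and 62272 to 69485 (median 66462) at P25, a log2 fold change of 2.42 (SE 0.135, adjusted p = 1.35e-08 in limma). Slc17a7, the vesicular glutamate transporter of cortical and cerebellar granule neurons, was at 146 to 4778 (median 1975) at P0 and 27070 to 30962 (median 28093) at P25. Its lowest P0 values were in the 2 Tbr1-low libraries, and its change was 3.36 from the other 4 and 7.11 from the 2. Dnm1, the dynamin of vesicle recycling, changed by 1.59. Syn3, a synapsin of young neurons, was at 1436 to 2028 (median 1712) at P0 and 266 to 406 (median 346) at P25 and fell by 2.32 on the log2 scale. In the postsynaptic density, Camk2a, a kinase of plasticity, was at 2296 to 6147 (median 5361) at P0 and 44294 to 53162 (median 46547) at P25 (3.46), whereas Camk2b changed by 0.47. Dlg4, which encodes PSD-95, and Nrgn, a calmodulin-binding protein of forebrain spines, changed by 0.94 and 3.44, where that of Nrgn was 2.71 from the other 4 P0 libraries and 4.89 from the 2. Shank1 and Dlgap4, scaffold proteins, and Nlgn2, an adhesion molecule of inhibitory synapses, fell by 0.64, 1.43 and 0.31 on the log2 scale.

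Of 32 genes of glutamate receptors and their partners, 14 rose and 11 fell (median 0.46), shares near those of all genes (35.6% and 35.9%). Grin2a, the NMDA receptor subunit of mature synapses, was at 621 to 1289 (median 792) at P0 and 5175 to 6488 (median 5988) at P25, a log2 fold change of 2.77 (SE 0.149, adjusted p = 9.74e-09 in limma). Grin2b, the subunit of early synapses, was at 9791 to 21489 (median 19605) at P0 and 12359 to 17213 (median 16483) at P25. It overlapped and was not called from all 6 P0 libraries (-0.11), while from the other 4 P0 libraries its change was -0.43 (adjusted p = 0.00101) and from the 2 Tbr1-low ones 0.54. Grin2c, a cerebellar subunit, and Grm4, a presynaptic receptor of granule cells, changed by 4.87 and 2.83. Grin1, the obligatory subunit, changed by 1.47, and Grm5 and Grik5 by -0.54 and -0.74.

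Of 29 genes of GABA and glycine signalling, 21 rose and 4 fell (median 0.88). Gabra5, a subunit high in young neurons, fell by 0.80 on the log2 scale. Gabrd, a subunit of receptors outside synapses, was at 9.17 to 170.1 (median 97.8) at P0 and 2352 to 2728 (median 2630) at P25, a log2 fold change of 5.39 (SE 0.633, adjusted p = 8.46e-06 in limma), 4.35 from the other 4 P0 libraries and 7.47 from the 2 Tbr1-low ones. Glra2, the fetal glycine receptor subunit, was at 2677 to 3117 (median 2932) at P0 and 652 to 723 (median 682) at P25 and fell by 2.09 on the log2 scale, with nearly the same change from either set of P0 libraries (-2.06 and -2.17). Of the chloride transporters, Slc12a5 (KCC2), which exports chloride from mature neurons, was at 4452 to 13249 (median 5713) at P0 and 19853 to 22254 (median 20989) at P25, and the 2 Tbr1-low libraries held its highest P0 values. Slc12a2 (NKCC1), which imports chloride in young neurons, was at 1800 to 2427 (median 2125) at P0 and 5120 to 5747 (median 5483) at P25 and rose by 1.38 on the log2 scale. Slc12a2 is also expressed by glia and choroid plexus, and the cells in which it rose cannot be read from whole tissue.

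**Figure D4:**
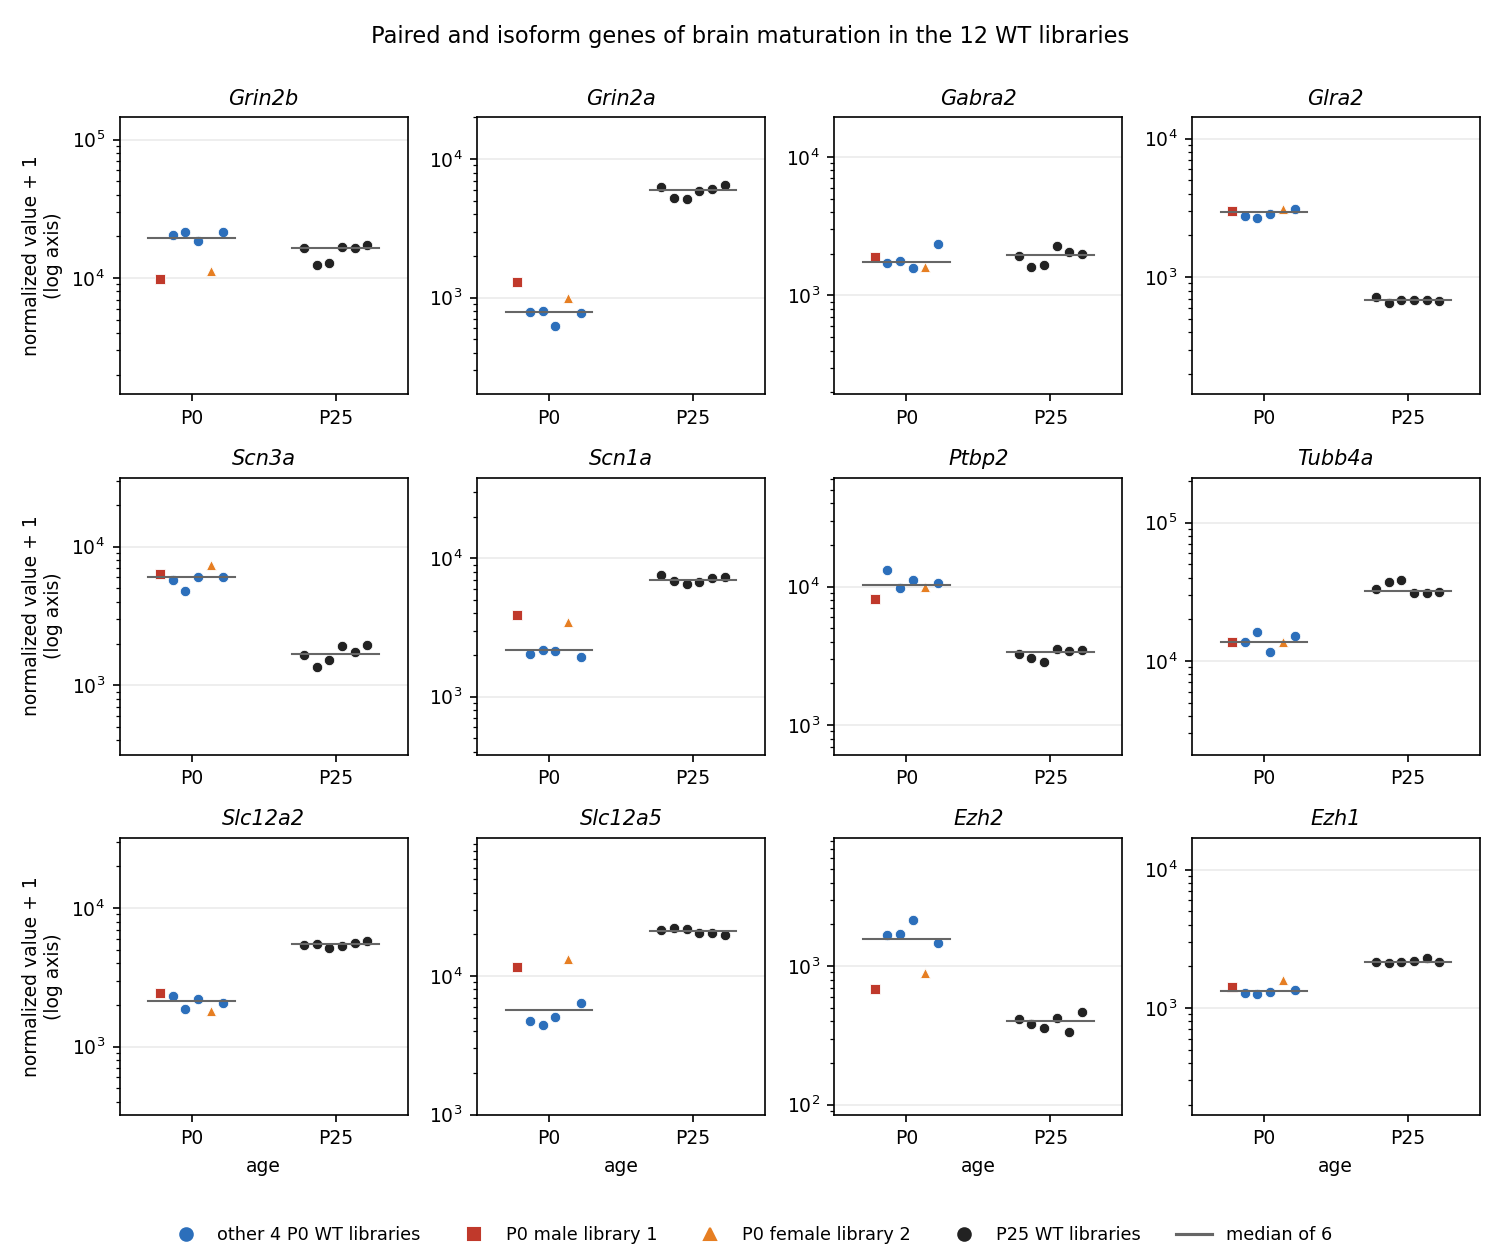
Normalized value plus 1 (log axis spanning 100-fold in each panel) of 12 genes of receptors, channels, a splicing factor, a tubulin, chloride transporters and Polycomb enzymes in each of the 6 P0 and 6 P25 WT libraries, with medians as lines. Grin2a, Scn1a, Tubb4a, Slc12a2, Slc12a5 and Ezh1 lie higher and Glra2, Scn3a, Ptbp2 and Ezh2 lower in each P25 library than in any P0 library, while Grin2b and Gabra2 overlap.

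Of 38 genes of voltage-gated channels, 25 rose and 10 fell (median 0.95). Scn1a, the sodium channel of mature axons and fast-spiking neurons, was at 1936 to 3880 (median 2158) at P0 and 6488 to 7550 (median 6992) at P25 (1.48). Scn3a, the fetal sodium channel, was at 4815 to 7340 (median 6021) at P0 and 1360 to 1954 (median 1688) at P25 (-1.84). For both genes the ages lay apart. Scn8a, the channel of nodes of Ranvier, changed by 0.91, and of the beta subunits Scn2b rose by 4.94 and Scn3b fell by 1.61 on the log2 scale. Cacna1b, the N-type calcium channel, fell by 0.86. Other pairs of related genes were compared as well. Ptbp1 and Ptbp2, splicing factors of progenitors and of young neurons, both fell (-1.50 and -1.67). Tubb3, a neuronal tubulin, fell (-2.37), and Tubb4a, a tubulin of mature neurons and oligodendrocytes, rose (1.26). Of the vesicle proteins, Vamp1 rose by 3.14 (3.88 from the other 4 P0 libraries and 1.68 from the 2 Tbr1-low ones) and Vamp2 by 0.44.

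Calls for interneuron genes depended on the P0 libraries. Of 26, 10 rose and 3 fell with all 6 P0 libraries, 6 fell without P0 male library 1, and 9 rose and 15 fell with the other 4. Vip, a peptide of a cortical class, was at 3.41 to 61 (median 11.7) at P0 and 608 to 762 (median 665) at P25. Calb1, a calcium buffer also of Purkinje cells, was at 794 to 991 (median 931) at P0 and 7575 to 8937 (median 8529) at P25, and Pvalb at 2.1 to 102 (median 8.33) at P0 and 3182 to 3907 (median 3322) at P25. These genes lay apart between the ages. The changes of Vip, Calb1 and Pvalb were 6.37, 3.13 and 9.43 from the other 4 P0 libraries and 3.78, 3.31 and 5.33 from the 2. Sox6, which acts in developing interneurons, fell by 1.27 on the log2 scale. Of 16 genes of the brain matrix, 6 rose and 7 fell, near the shares of all genes. Hapln2, a link protein of nodes of Ranvier, was at 9.28 to 28.1 (median 12.4) at P0 and 936 to 1326 (median 1088) at P25. Hapln4, a link protein of perineuronal nets, was at 42.7 to 294 (median 59.1) at P0 and 3045 to 3469 (median 3191) at P25, and neither gene overlapped. The change of Hapln4 was 5.89 from the other 4 P0 libraries and 3.80 from the 2. Acan, the aggrecan of perineuronal nets, rose by 1.51 and Bcan, brevican, by 1.15, whereas Ncan, neurocan, fell by 1.42 on the log2 scale.

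Genes induced by neuronal activity rose, 16 of 22 with 0 that fell (median 1.25), and 15 rose and 2 fell from the other 4 P0 libraries. Arc, a regulator of synaptic strength, was at 109 to 420.1 (median 169.8) at P0 and 1274 to 5799 (median 4235) at P25. Egr1, an early response transcription factor, was at 331 to 1715 (median 785) at P0 and 2961 to 8738 (median 7042) at P25. The P25 libraries spread over a wide range for both genes, and all were above the P0 libraries. Their log2 fold changes were 4.28 (SE 0.387, adjusted p = 8.56e-07 in limma) and 3.12 (SE 0.392, adjusted p = 1.53e-05 in limma). Vgf, a neuropeptide precursor, changed by 2.01. Of 18 circadian genes, 13 rose and 2 fell (median 1.95), and the hour at which brains were taken is not given in the sources used here. Dbp, an output gene of the clock, was at 154 to 374 (median 271) at P0 and 3039 to 3876 (median 3215) at P25. Per3, a member of the clock loop, was at 223 to 327 (median 265) at P0 and 2018 to 2496 (median 2208) at P25, and both lay apart. Arntl and Cry1 fell, by 0.29 and 0.51 on the log2 scale. Of 19 genes of the thyroid hormone and retinoid axis, 5 rose and 9 fell. Dio2, which makes active thyroid hormone, was at 53.2 to 639.6 (median 542) at P0 and 1924 to 2311 (median 2277) at P25, with a change of 1.92 from the other 4 P0 libraries and 4.92 from the 2. Klf9 and Hr, known targets of that hormone, changed by 2.73 and 2.39. Crabp1, a retinoic acid binding protein, was at 502 to 1350 (median 868) at P0 and 31.6 to 71.4 (median 49.5) at P25.

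Genes of energy metabolism rose. Of 50 genes of oxidative phosphorylation in the nuclear genome, 44 rose and 0 fell, 43 of them with ages apart, and the median log2 fold change was 0.75, with the same median from the other 4 P0 libraries. The changes were mostly small, and 11 reached 2-fold with ages apart. Sdha, of complex II, was at 5404 to 6831 (median 6063) at P0 and 12715 to 13719 (median 13113) at P25, a log2 fold change of 1.12 (SE 0.0606, adjusted p = 1e-08 in limma), and Atp5b, of ATP synthase, changed by 0.60. Ndufa2 and Ndufc1, small subunits of complex I, changed by 1.69 and 1.56. Of 13 genes encoded by mitochondrial DNA, 3 rose and 5 fell. Among them mt-Co2 was at 13062 to 44855 (median 24444) at P0 and 158426 to 183835 (median 166082) at P25, apart between the ages, with a median of 37345 in the 6 P80 WT libraries. Mitochondrial genes share sequence with copies in the nuclear genome, which makes their estimates uncertain. Of 25 genes of glycolysis and lactate, 21 rose and 1 fell (median 0.95). Aldoc, the aldolase of astrocytes and Purkinje cells, was at 2957 to 14311 (median 4054) at P0 and 28596 to 33308 (median 30161) at P25. Eno2, the neuronal enolase, was at 3877 to 7546 (median 4976) at P0 and 25497 to 27693 (median 26383) at P25, and both lay apart. Ldhb, the lactate dehydrogenase subunit of oxidative tissue, rose by 1.29 and Ldha by 0.27, while Pfkp, a phosphofructokinase, fell by 1.47 on the log2 scale.

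The machinery of translation and splicing fell. Of 45 genes of the cytosolic ribosome, 34 fell and 1 rose (median -0.81), and 24 had all P25 values below all P0 values. From the other 4 P0 libraries 43 fell and 0 rose (median -1.05), and in HT mice 28 fell and 0 rose (median -0.52). The summed value of the list was 269453 in P0 male library 1 and 328115 in P0 female library 2. It was 400707 to 477103 in the other 4 P0 libraries and 189000 to 222219 at P25. Rpsa, of the small subunit, was at 21563 to 40410 (median 33700) at P0 and 8232 to 9900 (median 8720) at P25. Rplp0, of the large subunit, was at 15758 to 33206 (median 27955) at P0 and 6211 to 7400 (median 6586) at P25. Their log2 fold changes were -1.82 and -1.92. Rpl24 was the member that rose (0.81), with 999.9 to 4758 (median 1952) at P0 and 3143 to 4038 (median 3436) at P25, which overlapped. Ribosomal protein genes have many processed copies in the genome, and their estimates depend on how shared reads were split. Of 40 spliceosome genes, 35 fell and 0 rose (median -0.59), and 23 had all P25 values below all P0 values. From the other 4 P0 libraries 38 fell (median -0.77), and in HT mice 32 fell (median -0.42). Hnrnpa1 was at 24647 to 49336 (median 45261) at P0 and 7558 to 8342 (median 7788) at P25 (-2.31), and Snrpd3, a core protein of the small nuclear ribonucleoproteins, changed by -1.72. Scaling each library to the same sum moved the median log2 fold change of all genes to 0.074, and quantile normalization to -0.044. The medians of these lists under either scaling are not given here, and the part of scaling in their falls was not tested.

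Genes of cholesterol synthesis changed in both directions, and most genes of export rose. Of 22 genes of synthesis, 12 fell and 7 rose (median -0.26). With ages apart and a change of at least 2-fold, 0 were lower and 3 were higher. In HT mice 6 genes of synthesis fell and 8 rose (median 0.06). A difference between the lists of synthesis and export was not tested. Msmo1, an enzyme of the later steps, was at 1056 to 1281 (median 1181) at P0 and 3175 to 3823 (median 3392) at P25. Ebp, which acts after it, was at 128 to 238 (median 171) at P0 and 605 to 732 (median 675) at P25. Their log2 fold changes were 1.56 and 1.96. Idi1, which acts earlier in the pathway, rose by 1.03 on the log2 scale. Of 13 genes of cholesterol and lipid export, 11 rose and 1 fell. Clu, clusterin, was at 1641 to 5138 (median 2967) at P0 and 18009 to 19184 (median 18519) at P25, and Lcat, which esterifies cholesterol in lipoproteins, changed by 3.67 (4.38 from the other 4 P0 libraries and 2.26 from the 2 Tbr1-low ones). Abca1, the exporter of cholesterol to Apoe, was the member that fell (-1.38).

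Genes of fetal growth fell in part. Of 22 genes of fetal growth and imprinting, 13 fell and 3 rose (median -0.59), with 5 that rose without P0 male library 1 and 6 from the other 4 P0 libraries. Besides H19, Nnat, neuronatin, was at 54522 to 85565 (median 68198) at P0 and 3902 to 6075 (median 4335) at P25, with changes of -3.92 from the other 4 P0 libraries and -3.92 from the 2. Meg3 fell by 0.38 on the log2 scale. Impact, Snrpn and Sgce rose, by 1.59, 0.67 and 0.25. Of 16 genes around Lin28 and the let-7 miRNAs, 12 fell and 0 rose (median -1.10), and 1 rose without any of 4 single libraries. Lin28b, which blocks the maturation of let-7, was at 616 to 1224 (median 720.2) at P0 and 271 to 303 (median 286) at P25, a log2 fold change of -1.49 (SE 0.16, adjusted p = 3.78e-06 in limma). Among known let-7 targets, Igf2bp1 was at 81.5 to 279.5 (median 209) at P0 and 0.53 to 11.8 (median 1.59) at P25. Igf2bp2 changed by -3.46, Hmga2 by -3.89 and Myc by -3.42. Mycn and Igf2bp3 changed by -2.31 and -1.52. Trim71 was at 13.4 to 40.8 (median 24.2) at P0 and 21.3 to 43 (median 40.3) at P25 and was not called (0.62), but passed the threshold without P0 male library 3 (0.77), P0 female library 2 (0.70) or P25 female library 3 (0.75).

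Chromatin remodelers fell. Of 31 genes of the BAF complexes and the CHD family, 24 fell and 3 rose (median -0.77), and 25 fell and 5 rose from the other 4 P0 libraries (median -1.02). Chd8, the gene mutated in the HT mice of the series, was at 4733 to 9547 (median 8329) at P0 and 3623 to 4707 (median 4149) at P25 in these WT libraries. Its log2 fold change was -0.89 (SE 0.143, adjusted p = 0.000121 in limma), -1.09 from the other 4 P0 libraries and -0.50 from the 2 Tbr1-low ones. Chd9 rose instead, with 1525 to 2871 (median 2067) at P0 and 7798 to 8914 (median 8218) at P25 (2.02), and Chd5, the neuronal member, fell by 0.33 on the log2 scale. Smarce1, a core subunit of BAF, was at 6156 to 9989 (median 8978) at P0 and 1876 to 2263 (median 1985) at P25. Dpf1 and Actl6b, subunits of the neuronal complex, fell by 2.44 and 0.86, as did Actl6a, the counterpart of Actl6b in progenitors, by 0.54 (adjusted p = 0.0215). The call of Actl6a was lost without any of 4 single libraries. Dpf2, a widely expressed relative of Dpf1, rose by 0.26 on the log2 scale. Of 29 genes of DNA methylation and histone marks, 16 fell and 5 rose. Uhrf1, which brings Dnmt1 to replicated DNA, changed by -3.53. Ezh2, the Polycomb methyltransferase of dividing cells, was at 685 to 2145 (median 1573) at P0 and 331 to 468 (median 399) at P25. Ezh1, its counterpart in cells that do not divide, was at 1253 to 1598 (median 1335) at P0 and 2105 to 2284 (median 2150) at P25. Neither overlapped between the ages, with changes of -1.75 and 0.67. Hdac2 fell (-1.26) and Hdac11, which is high in mature brain cells, rose (1.20).

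Of 22 genes of MHC class I, complement and interferon response, 15 rose and 1 fell (median 0.98). C4b, a complement component, was at 14.8 to 97.5 (median 32.7) at P0 and 446 to 814 (median 558) at P25. Ifi27, an interferon-induced gene, was at 52.5 to 124 (median 86.4) at P0 and 503 to 641 (median 602) at P25. B2m, the light chain of MHC class I, was at 719 to 2168 (median 917) at P0 and 1738 to 2185 (median 1862) at P25, and P0 male library 1 overlapped with P25 for this gene. Tap1, a peptide transporter, fell (-1.36).

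Region lists restate the unevenness of the P0 libraries. Of 19 telencephalic genes, 0 rose and 2 fell from all 6 P0 libraries, 10 fell without P0 male library 1, 8 without P0 female library 2, and 19 fell and 0 rose from the other 4 (median -2.15). Of 22 genes of midbrain and hindbrain, 5 rose from all 6 and 21 rose from the other 4 (median 3.26), and 0 fell in either. Emx1 had a log2 fold change of 1.29 from all 6 P0 libraries (not called), -0.62 from the other 4 and 5.12 from the 2. En2 changed by 5.83 (7.04 without P0 female library 2), 7.74 and 2.02 in the same order. Slc6a5, the glycine transporter of hindbrain neurons, was at 2.13 to 6560 (median 8.77) at P0 and 847 to 1448 (median 1186) at P25. It was counted as a rise from all 6 P0 libraries, with a change of 4.43 (SE 1.79, adjusted p = 0.0413 in limma), but its change was 7.46 from the other 4 and -1.63 from the 2, which held its highest P0 values. With 1 library left out it ranged from 3.56 to 5.94, and the call was lost in all such fits but those without P0 male library 1 or P0 female library 2. Of 19 cerebellar genes, 12 rose, all with ages apart, and 1 fell. Itpr1, a calcium channel of Purkinje cells, was at 1477 to 3876 (median 2836) at P0 and 17347 to 24950 (median 23729) at P25, and its change was 2.86 from the other 4 libraries and 3.71 from the 2. For genes of the midbrain, hindbrain and cerebellum, a change seen from the other 4 P0 libraries cannot be told apart from the regions that those libraries hold. Of 14 diencephalic genes tested, 6 rose (9 from the other 4 P0 libraries), among them the hypothalamic peptide genes Oxt and Pmch. Oxt was at 0 to 8.82 (median 0) at P0 and 153 to 195 (median 176) at P25 and Pmch at 0 to 165 (median 0.976) at P0 and 486 to 701 (median 632) at P25. The change of Pmch was 7.37, and 8.43 without P0 female library 3. Of 7 pituitary genes tested, 3 rose (median 1.24), and 6 rose from the other 4 P0 libraries (median 2.02). In HT mice 2 rose and 2 fell. Gh, growth hormone, ranged from 0 to 0.899 at P0 and from 0 to 227 at P25, so the ages overlapped. Its change was 3.92 (3.17 to 4.74 with 1 library left out), and its call was lost in females alone (adjusted p = 0.144). Pomc, the precursor of several pituitary hormones, was at 15.8 to 26.4 (median 17.9) at P0 and 66.2 to 297 (median 88.4) at P25.

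The change with age was also compared between the sexes. An interaction of age and sex passed the threshold for 0 of the 18482 genes (0%) in limma, with 390 genes (2.11%) at an unadjusted p under 0.05. Without the 2 Tbr1-low libraries, which belong to different sexes, 2 genes passed and 850 (4.6%) were at an unadjusted p under 0.05, and with any 1 library left out 0 or 1. Xist, the noncoding RNA of the inactive X chromosome, was at 87105 to 120928 in the 3 P0 females and at 29755 to 32264 in the 3 P25 females. It was at 83, 159 and 75.4 in the P0 males and 9.02, 1.09 and 2.75 in the P25 males. In females alone its log2 fold change was -1.76 (SE 0.135, adjusted p = 8.31e-05 in limma). Its antisense partner Tsix overlaps it, and the kit does not mark strand. Of the X-linked genes that escape silencing, Ddx3x and Kdm6a fell, by 1.09 and 0.85 on the log2 scale.

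The change with age was set beside that of HT mice, whose 12 libraries share no sample with the WT libraries. In HT mice 6635 of the 18482 genes (35.9%) rose and 6719 (36.4%) fell. Of the 6587 WT rises 5860 (89.0%) were also rises in HT mice, which is 88.3% of the HT rises. Of the 6630 WT falls 5832 (88.0%) were also falls in HT mice, which is 86.8% of the HT falls. There were 4 genes called in opposite directions. Of the 2925 genes that were at least 2-fold higher with ages apart in WT mice, all 6 P25 values were above all 6 P0 values in HT mice for 2693 (92.1%), against 26.9% of all genes. For the 2603 genes that were lower this held for 2401 (92.2%), against 25.8%. The HT log2 fold changes of Mobp, Mbp, Mki67 and H19 were 10.79, 7.32, -4.90 and -7.29, and that of Chd8, whose value in HT mice counts both alleles, was -0.46. The regions of the libraries differed between the genotypes as well. Of 19 telencephalic genes 8 rose and 1 fell in HT mice (median 0.84, against -0.57 in WT mice), and of 22 midbrain and hindbrain genes 2 rose and 7 fell (median -1.76, against 0.85). The WT change of Chd8 from the 2 Tbr1-low libraries, -0.50, was near that in HT mice, and the part of region in the difference between genotypes was not tested.

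**Figure D5:**
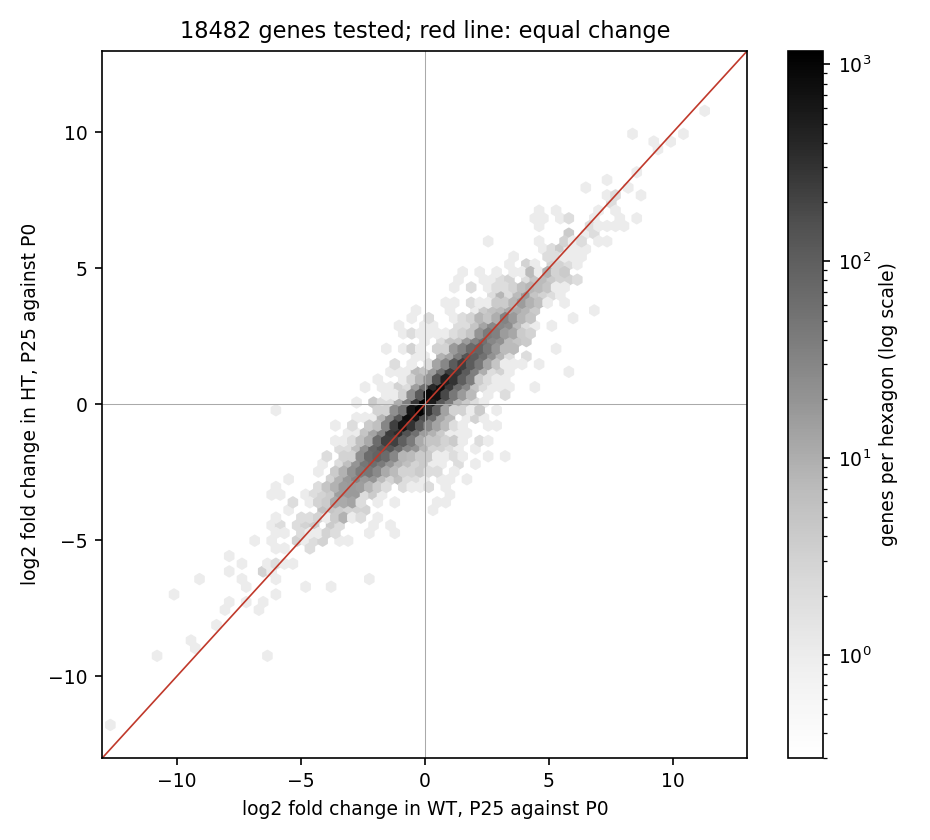
Log2 fold change from P0 to P25 in WT mice (horizontal) against that in HT mice (vertical) for the 18482 genes tested, as counts per hexagon on a log scale, with the line of equal change. Most genes lie along the line, and genes called in both genotypes have the same direction in all but 4 cases.

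Across the 18482 genes the log2 fold changes in WT and HT mice had a Pearson r of 0.937 and a Spearman rho of 0.929, where genes are not independent replicates and all libraries were normalized together. An interaction of age and genotype passed the threshold for 0 genes (0%) in limma, with 2095 genes (11.3%) at an unadjusted p under 0.05 and a smallest adjusted p of 0.111. Without the P0 males it also passed for 0 genes, with 1586 at an unadjusted p under 0.05. Leaving out 1 library gave 431 genes without P0 male WT library 1, 74 without P0 female HT library 2, 6 without P0 female WT library 2, and 0 without any other. The part of the brain regions held by single P0 libraries in these counts was not tested.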

How the data were processed

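RNA was extracted from frozen brains, and libraries were made with a TruSeq kit that does not mark strand and sequenced as paired ends. Per the labels and the study's methods, the authors estimated transcript abundances with Salmon 1.1.0 against GRCm38, summed them per gene and normalized them with DESeq2 1.26.0 over the 36 libraries. The deposited table holds 1 normalized signal per gene and library, which is not a whole number. Read depth is not recorded in it, and no interval that needs depth is given.

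Genes with a mean under 10 over the 12 WT libraries were left out. The values plus a pseudocount of 1 were put on the log2 scale and fitted in limma 3.58.1 (R 4.3.3) with age and sex as terms and a mean-dependent prior variance. P-values were adjusted by Benjamini and Hochberg over the 18482 genes tested. They weigh the difference between the ages against the spread between these libraries, which at P0 includes differences in brain region. Fold changes on this scale understate the change of low genes. Interactions of age with sex, and of age with genotype in the 24 WT and HT libraries, were fitted in the same way. The procedure was tested on simulated data, and no result of that test is given or used here.

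Named were Chd8, Emx1 and En2, the 12 largest rises and falls, and from each of 42 gene lists the 3 members with the highest mean, the 2 with the largest change, those called against most of the list, and all of 4 short lists, as far as space allowed. Some genes that meet the rule are not reported here. The libraries, lists and rule were chosen with earlier results of these data known. The same-numbered libraries of the 2 ages did not deviate together (r between -0.091 and -0.032 in the 6 pairs), so the replicate number was not used as a block. Alternatives covered the pseudocount, the filter, the scaling, the model, each sex alone, either set of P0 libraries and each library left out.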

Additional observations from a re-analysis of the deposited data

Results flagged for a closer look

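For 4 of 86 groups of 6 values (4.65%), the highest library lay far from its nearest neighbour relative to the range of its group, with a gap ratio above 0.625. Chance gives about 1 in 20 among separate groups, but these groups share libraries and genes, so no conclusion is drawn from the share. The ratio looks for 1 library far from the rest and cannot flag 2 that lie apart together. In P0 male library 1 and P0 female library 2 the telencephalic sums were 5901 and 8372, against 76224 to 95577 in the other 4 P0 libraries. That group was not flagged.

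The summed value of the myelin and mature oligodendrocyte list at P0 was 40637 in P0 male library 1, far above the other 5 P0 libraries (gap ratio 0.753). The same library had the highest summed value of the microglial list at P0, 11101 (0.719), and of the choroid plexus and ependyma list at P0, 85663 (0.777). It is the library with the highest Hoxb3 and Hoxb8 values. The part of its region in these sums was not tested. At P25, the summed value of the BAF and CHD remodelers was 131756 in P25 male library 3, above the other 5 P25 libraries (0.690).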

How the results depend on the processing

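Named genes were recomputed under up to 28 alternatives and the counts of calls under those that applied to each, and the counts of 6587 rises and 6630 falls stayed within 1.5 times under all but a stricter one. With an added demand of at least a 2-fold change, 3352 genes rose and 3017 fell. Leaving out 1 library at a time gave 6277 to 6952 rises and 6368 to 7037 falls, 4969 to 5549 and 4888 to 5611 genes with ages apart upwards and downwards, and in HT mice 6347 to 6971 rises and 6440 to 7060 falls. The interaction of age and sex passed for 0 to 1 genes and that of age and genotype for 0 to 431, the latter without P0 male WT library 1. Without P0 male library 1 and P0 female library 2, the interaction of age and sex passed for 2 genes. The cause was not tested. With the replicate number as a block, 6422 genes rose and 6480 fell, and 12862 calls were shared. The numbers do not pair these libraries, and 0 of 6 correlated best with their own number. Males alone gave 4766 rises and 4861 falls, and females alone 5583 and 5658.

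Of the 188 genes with values over both ages in the text, 180 were called, 160 of them under every alternative, 20 lost the call under at least 1, and 1 of these, Slc6a5, also reversed. The 20 were Actl6a, Aldh1l1, Arntl, B2m, Camk2b, Chd5, Cry1, En2, Gh, Hba-a2, Hbb-bs, Meg3, Mgp, Nlgn2, Nrcam, Rpl24, Sgce, Slc6a5, Sox9 and Xist. The other 8 were not called, and 7 of them turned. With array quality weights Emx1 turned to -0.15, Tbr1 to -1.0 and Hoxb8 to 0.15. From the other 4 P0 libraries Emx1 turned to -0.62, Tbr1 to -1.56, Tcf7l2 to 0.28 and Hoxb8 to 0.44. From P0 male library 1 and P0 female library 2 alone Grin2b turned to 0.54, Ttr to -0.30 and Hoxb3 to -5.01, and Slc6a5, called as a rise from all 6, to -1.63. In males alone Ttr turned to -0.28 and Tcf7l2 to 1.37, and in females alone Grin2b to 0.02 and Hoxb8 to 1.80. With a pseudocount of 10 Hoxb3 turned to -0.18. With 1 library left out, Tbr1 ranged from -0.50 to 1.09 (below 0 without P0 male library 1 or P0 female library 2), Tcf7l2 from -0.83 to 0.39 (above 0 without P0 female library 2 or 3), and Hoxb8 from -1.74 to 0.47 (above 0 without P0 male library 1). The deposited values record no depth, and groups of 6 limit the precision.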
